A study of Mus musculus with 12 samples.

Results

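Chemokine receptors of dendritic cells were described as a set of 7 named genes (Ccr1, Ccr2, Ccr7, Ccrl2, Cx3cr1, Cxcr2 and Cxcr4) among the 55335 genes listed for each library. The names themselves set the membership, by no threshold on a measured value, although earlier results of these data were known when they were chosen. The samples for RNA-seq were dendritic cells that had developed in GM-CSF cultures of mouse bone marrow (BMDC) over 6 days, with new medium every 2 days. The mice were C57BL/6 animals that carried the Rosa26-CreER transgene and an intact Ctcf gene, and the methods of the study give males and females of 8 to 12 weeks and a selection of floating CD11c+ cells on beads. The 4 groups of 3 libraries were WT (no LPS and no JSH-23), WTL (LPS at 100 ng/ml for 3 h), WT + JSH23 (JSH-23 at 100 µM for 3 h) and WTL + JSH23 (JSH-23 for 3 h as a pre-treatment, then LPS). The time from the start of JSH-23 to harvest may therefore differ between the 2 JSH-23 groups. Any effect of that time cannot be told apart from that of LPS after JSH-23. LPS, from the outer membrane of Gram-negative bacteria, activates dendritic cells through TLR4. JSH-23 is a small molecule described as a blocker of the nuclear entry of RelA, a subunit of NF-κB. The labels give no solvent control for WT and WTL, and they do not say whether these cultures received 4-hydroxytamoxifen, the ligand that activates CreER, so any effect of a solvent cannot be told apart from that of JSH-23.

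Chemokine receptors are membrane proteins that couple to inhibitory G proteins and steer cells along gradients of small secreted proteins, the chemokines. Immature dendritic cells and monocytes carry receptors for inflammatory chemokines, and a maturing dendritic cell is known to exchange these for CCR7, which guides it into lymph vessels and to the T cell areas of lymph nodes. CXCR4 retains cells in the bone marrow through its ligand CXCL12, CX3CR1 binds fractalkine, CXCR2 is the main receptor of neutrophils for CXC chemokines, and CCRL2 is an atypical receptor that presents chemerin and does not signal as the others do.

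Of the 7 genes, 4 lie on mouse chromosome 9 (GRCm38, mm10; positions from GENCODE M21). Ccr1 (ENSMUSG00000025804.5) is at chr9:123962124-123968692 on the minus strand, and Ccr2 (ENSMUSG00000049103.14) starts 133257 bp further on, at chr9:124101950-124113557 on the plus strand. Ccrl2 (ENSMUSG00000043953.12, chr9:111054486-111057519) and Cx3cr1 (ENSMUSG00000052336.7, chr9:119901616-120069879) are both on the minus strand of that chromosome. Cxcr4 (ENSMUSG00000045382.6, chr1:128588199-128592293, minus strand) and Cxcr2 (ENSMUSG00000026180.8, chr1:74153989-74161246, plus strand) are on chromosome 1, and Ccr7 (ENSMUSG00000037944.8, chr11:99144196-99155077, minus strand) is on chromosome 11. The Cx3cr1 gene model spans 168264 bp and overlaps 9 other genes, 5 of them protein-coding, and its counts were whole numbers in all libraries. Ccr2 had a fractional expected count in 9 libraries, so some of its read pairs had been divided with other genes, and how many cannot be read from these values.

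Promoter sequences were available for 6 of the 7 genes, as RefSeq windows of 250 bases before to 50 bases after a transcript start (GRCm38.p6). Each window was searched on both strands for the κB decamer consensus to which NF-κB binds, for ACGTG, the core of the hypoxia response element, and for TGANTCA, the AP-1 motif. Among all 32851 windows, 8.46% held the κB decamer, 19.6% held ACGTG and 7.81% held TGANTCA. The bases before the start are shown for Ccrl2, the receptor gene that rose with LPS, for Ccr1, which fell with LPS, and for Ccr2 and Cx3cr1, the pair whose levels followed each other most closely. Capitals mark the matches and each sequence is written 5′ to 3′ on the strand of the gene.
Ccrl2 (chr9:111057519-111057768, minus strand): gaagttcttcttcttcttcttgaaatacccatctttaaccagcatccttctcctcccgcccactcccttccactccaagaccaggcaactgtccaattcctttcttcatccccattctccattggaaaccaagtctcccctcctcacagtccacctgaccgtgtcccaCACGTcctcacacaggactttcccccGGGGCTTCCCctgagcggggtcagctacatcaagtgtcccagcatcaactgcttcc
Ccr1 (chr9:123968693-123968942, minus strand): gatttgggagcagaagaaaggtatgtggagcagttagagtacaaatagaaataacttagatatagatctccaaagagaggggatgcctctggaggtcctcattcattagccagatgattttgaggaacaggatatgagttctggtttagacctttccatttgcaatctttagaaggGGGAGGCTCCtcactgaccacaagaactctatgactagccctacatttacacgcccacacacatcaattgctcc
Ccr2 (chr9:124101933-124102182, plus strand): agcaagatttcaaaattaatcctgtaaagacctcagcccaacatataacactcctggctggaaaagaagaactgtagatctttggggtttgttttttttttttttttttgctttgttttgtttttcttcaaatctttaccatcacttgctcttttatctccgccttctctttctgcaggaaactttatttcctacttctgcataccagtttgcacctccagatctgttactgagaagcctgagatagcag
Cx3cr1 (chr9:120068297-120068546, minus strand): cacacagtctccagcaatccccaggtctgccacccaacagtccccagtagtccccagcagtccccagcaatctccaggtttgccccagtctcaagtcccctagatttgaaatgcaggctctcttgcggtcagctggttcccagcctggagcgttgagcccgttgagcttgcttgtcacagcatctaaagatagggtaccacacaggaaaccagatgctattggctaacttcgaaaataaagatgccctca
In Ccrl2 the κB letters match the consensus on both strands, and the match begins 56 bases before the start, with 1 ACGTG match on the opposite strand further upstream. The windows of the other 2 RefSeq starts of Ccrl2 overlap each other and hold the same single ACGTG match, at another position than the one shown. They hold no κB match. Ccr1 held 1 κB match, and Ccr2, Cx3cr1, Cxcr2 and Cxcr4 held none of the 3 motifs in their windows. A match is a run of letters and not a measured binding site.

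Total expected counts per library ran from 24664724 to 34837847. Listed markers of dendritic cells were present in all groups: the 9 marker genes, which include the integrin gene Itgax and the class II genes H2-Ab1 and Cd74, summed to between 20410 and 23350 TPM. Most of that sum came from Cd74, H2-Aa and H2-Ab1, at 14120, 4645 and 3590 TPM in WT. Others of the list were low in WT, with Zbtb46 at 23.5 and Flt3 at 2.94 TPM. Monocyte and macrophage markers were present too, at 1070 to 2236 and 1511 to 2849 TPM in sum. Mast cell and basophil markers summed to at most 3.15 TPM and lymphocyte markers to at most 5.81 TPM. Libraries of a group differed from each other by more than sampling noise, with a chi-square per degree of freedom of 2.32 to 4.5 in 10 pairs, and of 8.18 and 9.11 in the 2 pairs that include WTL + JSH23 replicate 3. That library therefore stood further from its group than any other, and values without it are given where they move a receptor result across the adjusted p threshold. Leaving it out did not change the number of receptor genes called in any of the 5 comparisons below. The labels name no culture or sequencing batch.

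The receptor genes covered a wide range of levels in resting cells. On the deposited TPM scale, which divides by transcript length so that genes can be compared, WT cells held 1225 TPM of Ccr7, 76.4 TPM of Ccrl2, 70.8 TPM of Cxcr4, 68.5 TPM of Ccr2, 39.5 TPM of Ccr1 and 20.8 TPM of Cx3cr1 (means of 3 libraries). Cxcr2 was listed at 0.09 to 0.23 TPM in the WT libraries. Ccr7 therefore made up 81.6% ± 0.917 (SD, n = 3) of the summed TPM of the 7 receptors in WT, and it remained the largest of them in WTL (71.3% ± 0.658), WT + JSH23 (87.3% ± 0.477) and WTL + JSH23 (76.7% ± 1.97). The sum itself was 1501 ± 83.2 TPM in WT, 1471 ± 27.7 in WTL, 1673 ± 56.7 in WT + JSH23 and 1809 ± 131 in WTL + JSH23. Below Ccr7, the levels of Ccrl2, Cxcr4 and Ccr2 in WT were close together: their library ranges were 73.5 to 80.2, 63.4 to 78.4 and 65.9 to 73.2 TPM, and only those of Ccrl2 and Ccr2 did not overlap.

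**Figure D1:**
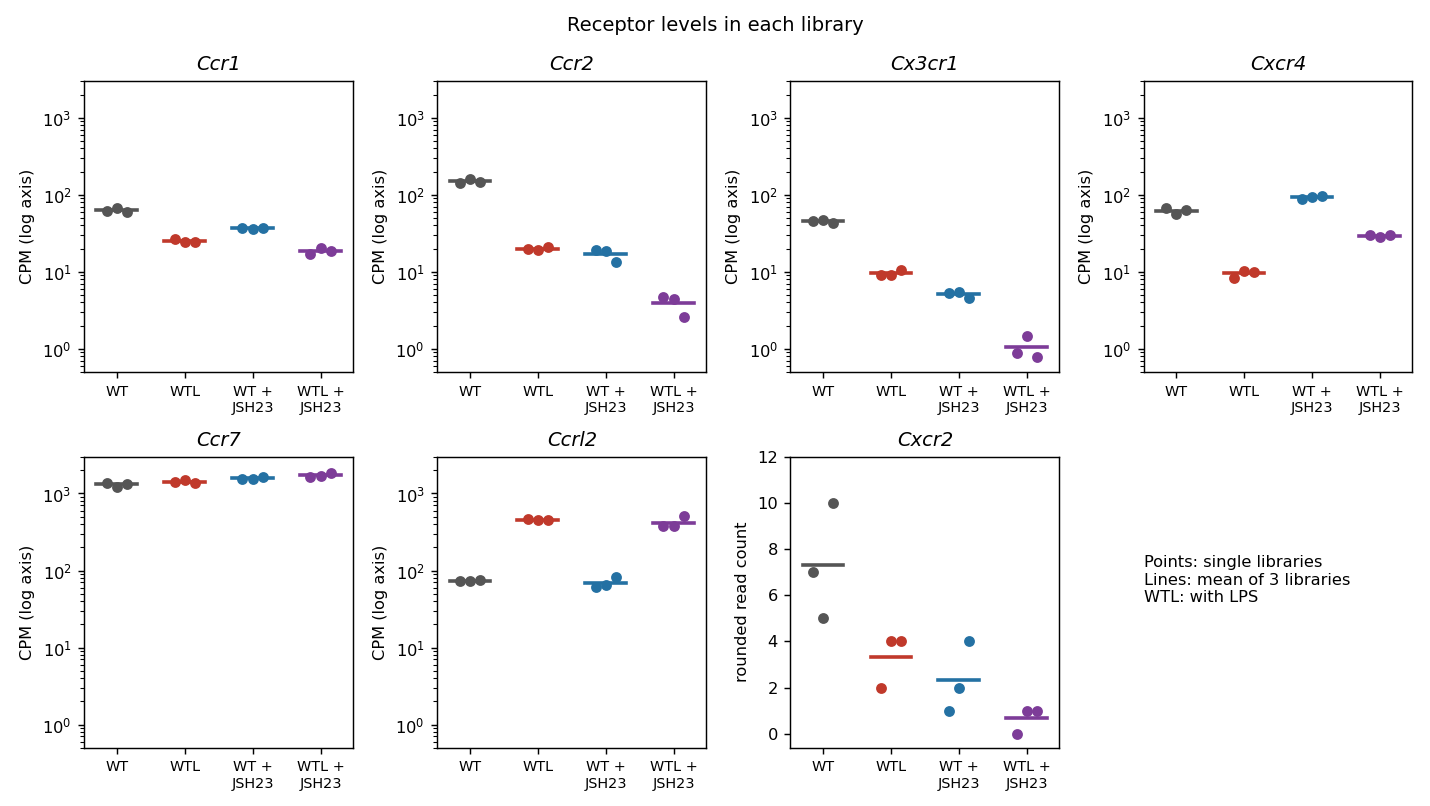
Level of each receptor gene in each of the 12 libraries, in scaled counts (CPM, log axis) for 6 genes and in rounded read counts for Cxcr2; points are libraries and lines are means of 3. Ccr2 and Cx3cr1 step down in both agents, Ccrl2 is high in the LPS groups alone, Cxcr4 is lowest in WTL, and Ccr7 stays between 1221 and 1828 CPM throughout.

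The response of these genes to LPS was examined first, in WTL against WT. Among the 7 genes, 6 passed the filter on low counts, and 5 of these changed by more than 2-fold at an adjusted p under 0.05, with 1 higher and 4 lower, against 16.4% of all 14357 genes tested. Without the fold threshold all 6 passed, 2 higher and 4 lower, against 65.7% of all genes. The median log2 fold change of the 6 genes was -1.79, and that of all genes tested was -0.05. Receptors for inflammatory chemokines and for CXCL12 were on the lower side and Ccrl2 was on the higher side. In bulk RNA a lower level can come from fewer cells that express the gene or from less RNA per cell, and the 2 cannot be told apart.

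Ccr2, the receptor through which monocytes leave the bone marrow towards CCL2, had the largest fall. Its level was 143, 159 and 145 CPM in the WT libraries and 19.7, 19.3 and 20.8 CPM in the WTL libraries, where CPM is the count divided by the scaled library size. The groups were far apart, and the log2 fold change was -2.91 (SE 0.0941, adjusted p = 9.15e-17, edgeR quasi-likelihood test, as for all adjusted p values below unless another tool is named), a 7.51-fold lower level. Cxcr4, the receptor for CXCL12, went from 67.9, 56.4 and 62.6 CPM in WT to 8.29, 10.4 and 10.1 CPM in WTL. All WTL libraries lay below all WT libraries, with a log2 change of -2.70 (SE 0.0809, adjusted p = 2.57e-17). Cx3cr1, the fractalkine receptor that marks monocytes and their descendants, was at 45.4, 47.5 and 42.8 CPM in WT and 9.07, 8.97 and 10.6 CPM in WTL, which is a log2 change of -2.25 (SE 0.0825, adjusted p = 7.47e-16). Ccr1, a receptor for CCL3 and CCL5, fell less: it was at 61.3, 67.9 and 60.1 CPM in WT and at 26.9, 24.2 and 24.4 CPM in WTL, with a log2 change of -1.33 (SE 0.0614, adjusted p = 4.14e-14). Among all genes tested, counted from the largest fall, Ccr2 stood at place 62, Cxcr4 at 84, Cx3cr1 at 171 and Ccr1 at 743.

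Ccrl2 rose in the same comparison. It was at 72.5, 73.5 and 74.6 CPM in the WT libraries and at 466, 454 and 450 CPM in the WTL libraries. The 2 groups did not overlap and were each narrow, and the log2 change of 2.64 (SE 0.0948, adjusted p = 5.59e-16) is a 6.22-fold rise, the 170th largest of all genes tested. On the TPM scale Ccrl2 took 5.09% ± 0.23 of the summed receptor TPM in WT and 26.5% ± 0.63 in WTL.

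Ccr7, the receptor for the lymph node chemokines CCL19 and CCL21, barely moved within the 3 h of LPS. It was at 1364, 1221 and 1342 CPM in WT and at 1398, 1484 and 1359 CPM in WTL, and the libraries of the groups overlapped. The log2 change of 0.11 (SE 0.0476, adjusted p = 0.0449) passed the threshold narrowly, but its direction depended on the scale: with the deposited TPM values it was -0.22 (adjusted p = 0.00142, limma), and with upper quartile scaling it was 0.03 (adjusted p = 0.588). It also missed the threshold without WT replicate 5 (0.06, adjusted p = 0.266), without WTL replicate 4 (0.12, adjusted p = 0.0653), without WTL replicate 5 (0.08, adjusted p = 0.216) and without WT + JSH23 replicate 2 (0.11, adjusted p = 0.0536). A direction of Ccr7 under LPS was therefore not established in these libraries. Relative to other receptors of the same library, which needs no scaling between libraries, Ccr7 stood at 18.0 ± 2.18 times the TPM of Ccr2 in WT and at 137 ± 13 times in WTL, and at 17.4 ± 0.873 and 122 ± 17 times the TPM of Cxcr4. The ratio of Ccr7 to Ccrl2 went the other way, from 16.1 ± 0.852 to 2.69 ± 0.088.

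**Figure D2:**
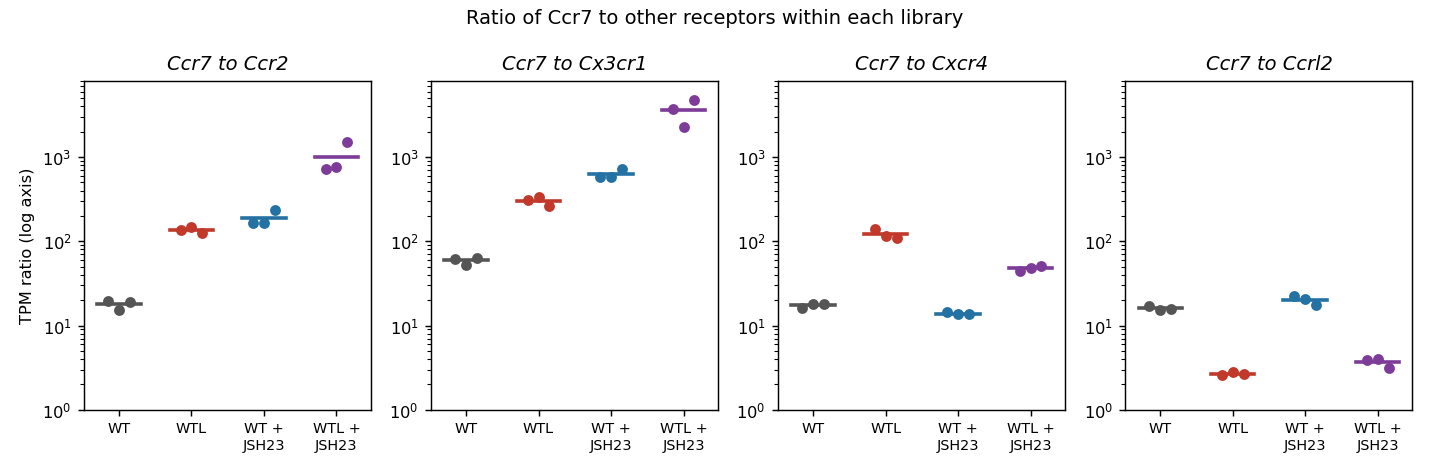
Ratio of Ccr7 TPM to the TPM of Ccr2, Cx3cr1, Cxcr4 and Ccrl2 within each library (log axis); points are libraries and lines are means of 3. The ratio to Ccr2 runs from 15.5 to 19.5 in WT and from 718 to 1520 in WTL + JSH23, whereas the ratio to Ccrl2 is lower in both LPS groups than in the groups without LPS.

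Cxcr2, the neutrophil receptor for CXCL1 and CXCL2, was close to the limit of detection. Its counts were 7, 5 and 10 in WT, 2, 4 and 4 in WTL, 1, 2 and 4 in WT + JSH23 and 0, 1 and 1 in WTL + JSH23, which sum to 22, 10, 7 and 2. It did not pass the low-count filter and has no main test. In the fit without that filter (26118 genes) its log2 fold change was -0.82 (SE 0.745, adjusted p = 0.474) for LPS without JSH-23 and -1.5 (SE 0.784, adjusted p = 0.192) for JSH-23 without LPS, so no change could be detected at this depth in either. Against WT, the group with both agents was lower in that fit (adjusted p = 0.00939), but WTL + JSH23 held at most 1 count per library and a fold has no firm base there. Of the 12 neutrophil markers, 9 were tested and Ly6g, Retnlg and Elane were not, with at most 6 counts in any library. Others were clearly detected, with up to 8201 counts of Mmp8, 1059 of Csf3r and 625 of S100a9 in a library. The 12 markers summed to 388 to 401 TPM in WT, 333 to 347 in WTL, 335 to 359 in WT + JSH23 and 280 to 299.9 in WTL + JSH23. Mmp8, the largest of the sum, went from 164.5 TPM in WT to 97.1 in WTL + JSH23, and S100a8 from 85.8 to 81.6. With LPS 4 of the 9 tested were higher and 3 lower at an adjusted p under 0.05, where 65.7% of all genes passed. With JSH-23 none was higher, while 4 were lower without LPS and 9 under LPS, where 41.0% and 48.7% of all genes passed. The part of these markers in the Cxcr2 values was not tested.

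To examine how JSH-23 alone altered the receptors, WT + JSH23 was compared with WT. Of the 6 genes tested, 2 were lower by more than 2-fold and none was higher, against 5.37% of all genes, and 5 passed at an adjusted p under 0.05 alone (2 higher and 3 lower), against 41.0% of all genes. The median log2 fold change was -0.44 for the 6 genes and -0.01 for all genes. Cx3cr1 was at 5.38, 5.54 and 4.53 CPM in the WT + JSH23 libraries, where WT had a mean of 45.2 ± 2.37 CPM. Its log2 fold change was -3.14 (SE 0.0887, adjusted p = 1.47e-16), an 8.79-fold lower level and the 13th largest fall of all genes tested. Ccr2 was next to it in that order, at place 14: it was at 18.9, 18.7 and 13.5 CPM against 149 ± 8.75 CPM in WT, with a log2 change of -3.13 (SE 0.0942, adjusted p = 3.67e-16). Both genes kept about the same share of their WT level, 11.4% for Ccr2 and 11.4% for Cx3cr1.

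Ccr1 was lower with JSH-23 by less than 2-fold, at 36.7, 36.3 and 37.0 CPM and a log2 change of -0.78 (SE 0.0579, adjusted p = 3.5e-10). Cxcr4 was higher with JSH-23, at 88.2, 95.0 and 97.6 CPM against 56.4 to 67.9 CPM in WT, with a log2 change of 0.59 (SE 0.0618, adjusted p = 8.88e-08). Ccr7 was higher as well, at 1519, 1565 and 1617 CPM, all above the highest WT library, with a log2 change of 0.26 (SE 0.0476, adjusted p = 0.00013). The direction of the Ccr7 change with JSH-23 was the same under every scaling tried, from 0.21 to 0.29 over the alternatives. Ccrl2 was at 61.0, 65.2 and 81.2 CPM, on both sides of the WT libraries, and its log2 change of -0.09 (SE 0.0967, adjusted p = 0.505) did not pass.

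JSH-23 was then compared in the presence of LPS (WTL + JSH23 against WTL). More than 2-fold changes were found for 3 of the 6 genes tested, 1 higher and 2 lower, against 7.0% of all genes, and 5 passed at an adjusted p under 0.05 (2 higher and 3 lower), against 48.7%. The medians were -0.28 for the receptor genes and 0.02 for all genes. Cx3cr1 reached its lowest level here, with 0.886, 1.47 and 0.778 CPM (18 to 37 counts per library) and a log2 change of -3.18 (SE 0.156, adjusted p = 4.38e-13). Ccr2 was at 4.75, 4.50 and 2.59 CPM, with a log2 change of -2.31 (SE 0.146, adjusted p = 2.45e-11). Ccr1 was at 17.1, 20.4 and 18.5 CPM and fell by 0.43 on the log2 scale (SE 0.0705, adjusted p = 2.73e-05).

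Cxcr4 moved against these 3 genes. It was at 30.4, 28.0 and 30.2 CPM in WTL + JSH23, all well above the WTL libraries, and its log2 change of 1.62 (SE 0.0878, adjusted p = 2.05e-12) is a 3.08-fold higher level. Ccr7 was at 1637, 1680 and 1828 CPM and was higher by 0.28 on the log2 scale (SE 0.0476, adjusted p = 4.84e-05), with no overlap with WTL. Ccrl2 was at 377, 375 and 503 CPM, and its log2 change of -0.13 (SE 0.0868, adjusted p = 0.235) did not pass. The third library is the one that stood apart from its group. Without it the change of Ccrl2 was -0.28 (adjusted p = 0.000602), and it passed in the fit without a low-count filter as well (-0.13, adjusted p = 0.0169).

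**Figure D3:**
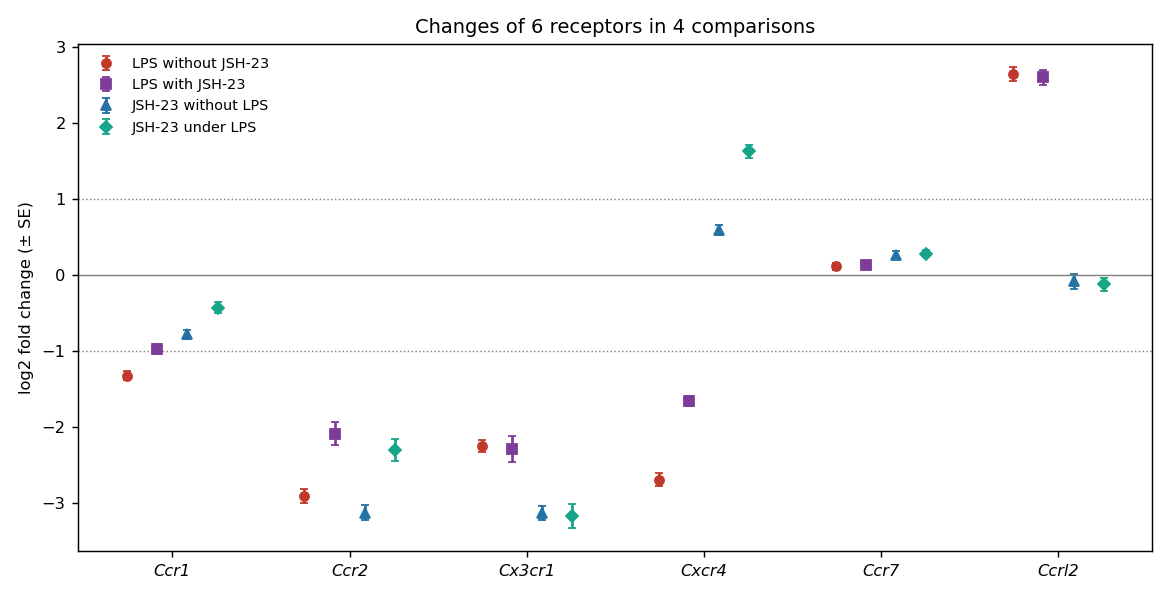
Log2 fold change of 6 receptor genes in 4 comparisons, with bars of 1 SE; dotted lines mark 2-fold. For Ccr2 and Cx3cr1 all 4 changes lie below -2, Cxcr4 falls with LPS and is higher with JSH-23, and Ccrl2 changes with LPS by 2.64 and 2.6 and hardly with JSH-23.

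Markers of other cell types moved along with JSH-23. All 8 monocyte markers were lower in WTL + JSH23 than in WTL at an adjusted p under 0.05, where 48.7% of all genes passed. In WT + JSH23 against WT 6 of 8 were lower and 1 was higher, where 41.0% of all genes passed. The summed level of the monocyte markers was 1298 to 1331 TPM in WT, 1070 to 1103 in WT + JSH23, 2224 to 2236 in WTL and 1839 to 1897 in WTL + JSH23. Ly6c2, which encodes the Ly6C antigen of inflammatory monocytes, had the largest fall of the list with JSH-23 without LPS, from 146 to 54.2 CPM, a log2 fold change of -1.43 (adjusted p = 5.24e-13). Cd14, the LPS co-receptor in the same list, rose by 0.64 in that comparison (adjusted p = 7.75e-10). Its mean level was 299 TPM in WT, 464 in WT + JSH23, 1254 in WTL and 1247 in WTL + JSH23. The higher monocyte sums with LPS therefore rest largely on Cd14, and its rise with JSH-23 without LPS offsets part of the falls of other markers in the sum. Of the 9 macrophage markers tested, 7 were lower with JSH-23 in each of the 2 comparisons, against the same shares of all genes. Cd68 was higher by 0.35 without LPS and 0.52 under LPS (adjusted p = 4.4e-06 and 1.36e-08). The summed level of the macrophage markers went from 2723 to 2849 TPM in WT to 1963 to 2023 TPM in WT + JSH23, with the macrophage gene Vsig4 at 0 in every library. The changes of these marker genes with JSH-23 were all smaller than those of Ccr2 and Cx3cr1, and their part in the result was not tested. Dendritic cell markers moved as well. Without LPS the 9 markers had a median log2 fold change of -0.12 with JSH-23. At an adjusted p under 0.05, 4 were lower and 2 higher, against 41.0% of all genes. Under LPS the median was -0.19, with 8 of the 9 lower and none higher, against 48.7% of all genes.

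The response to LPS was also examined within JSH-23 pre-treated cells (WTL + JSH23 against WT + JSH23). More than 2-fold changes were found for 4 of the 6 genes, 1 higher and 3 lower, against 10.3% of all genes, and all 6 passed at an adjusted p under 0.05 (2 higher and 4 lower), against 54.5%. The medians were -1.32 for the receptor genes and -0.02 for all genes. Cx3cr1 fell from 5.15 ± 0.543 to 1.05 ± 0.374 CPM, a log2 change of -2.29 (SE 0.172, adjusted p = 2.61e-10). Ccr2 fell from 17.1 ± 3.09 to 3.95 ± 1.18 CPM (-2.09, SE 0.147, adjusted p = 9.25e-11). Cxcr4 fell from 93.6 ± 4.86 to 29.6 ± 1.34 CPM (-1.66, SE 0.0677, adjusted p = 8.83e-15). Ccr1 fell from 36.7 ± 0.393 to 18.7 ± 1.67 CPM, which is just under 2-fold (-0.98, SE 0.0668, adjusted p = 5.59e-11).

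Ccrl2 rose from 69.1 ± 10.6 to 418 ± 73.7 CPM, a log2 change of 2.6 (SE 0.0955, adjusted p = 1.58e-15). Its spread between libraries was wider in both JSH-23 groups than in WT (73.5 ± 1.07 CPM) and WTL (457 ± 8.27 CPM). For Ccr7 the change was 0.13 (SE 0.0476, adjusted p = 0.0253), and as without JSH-23 it turned to -0.08 on the TPM scale. The Ccr7 change missed the threshold under upper quartile scaling (0.05, adjusted p = 0.425), without WT + JSH23 replicate 1 (adjusted p = 0.105) or replicate 2 (adjusted p = 0.058), and without WTL + JSH23 replicate 3 (0.08, adjusted p = 0.132).

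Whether the LPS change of a receptor differed with JSH-23 was tested directly with the interaction, which is the log2 LPS change with JSH-23 minus the change without it. It passed for 3 of the 6 genes, all of them positive, against 18.0% of all genes tested, and the medians were 0.19 for the receptors and 0.03 for all genes. All 3 fell with LPS, so a positive value means a smaller fall after JSH-23. For Cxcr4 the interaction was 1.03 (SE 0.108, adjusted p = 1.48e-06): LPS left 15.4% of the WT level without JSH-23, while WT + JSH23 started at 150% and WTL + JSH23 kept 47.4% of the WT level. For Ccr2 it was 0.82 (SE 0.191, adjusted p = 0.00477), and without WTL + JSH23 replicate 1 it was 0.66 (adjusted p = 0.0532). For Ccr1 it was 0.35 (SE 0.0914, adjusted p = 0.0101). Ccr7 (0.02, SE 0.0673, adjusted p = 0.891), Ccrl2 (-0.04, SE 0.13, adjusted p = 0.875) and Cx3cr1 (-0.04, SE 0.194, adjusted p = 0.92) did not pass.

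Cx3cr1 and Ccr2 ended at nearly the same share of their WT level with both agents, 2.31% and 2.64%, by different sums. For Cx3cr1 the separate log2 changes of LPS and JSH-23 added up to -5.39 and the joint change was -5.43 (SE 0.122), a 43.1-fold lower level. For Ccr2 they added up to -6.04 and the joint change was -5.22 (SE 0.12), a 37.3-fold lower level. The Cx3cr1 value depended on the scale, since with log2(TPM + 1) its interaction was 1.03 (adjusted p = 0.00142, limma). Its TPM means were 20.8, 3.5, 2.36 and 0.42 in WT, WTL, WT + JSH23 and WTL + JSH23, so that the added 1 TPM exceeds the level in the last group. The ratio of Ccr2 to Cx3cr1 within a library, in TPM, was 3.30 ± 0.131 in WT, 2.20 ± 0.0734 in WTL, 3.39 ± 0.238 in WT + JSH23 and 3.76 ± 1.25 in WTL + JSH23, so that the lowest ratio was in WTL.

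**Figure D4:**
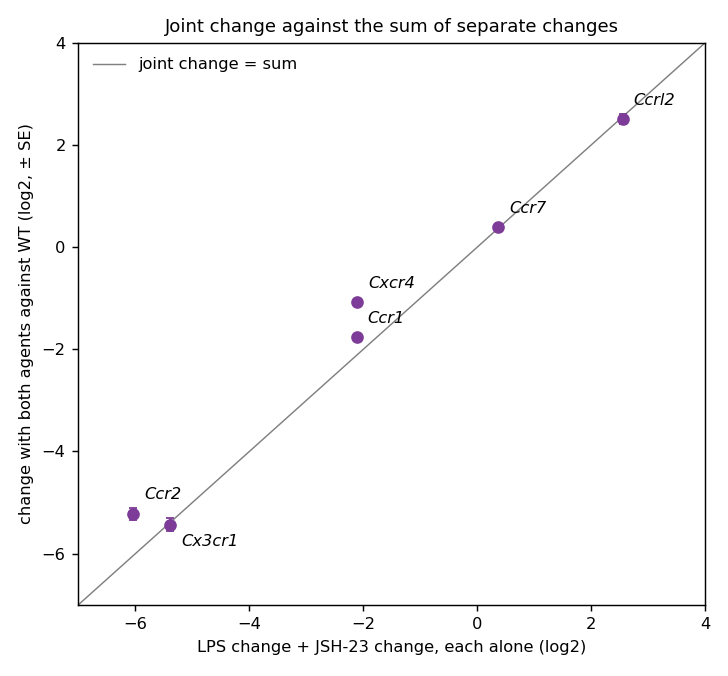
Change with both agents against WT (vertical axis, log2, bars of 1 SE) set against the sum of the LPS and JSH-23 changes measured separately (horizontal axis), for 6 receptor genes; the line marks equality. Cxcr4, Ccr2 and Ccr1 lie above the line by 1.03, 0.82 and 0.35, and the other 3 genes lie within 0.04 of it.

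The order of the 4 groups was set out for each receptor, with the reservation that the comparisons share libraries and are not independent of each other. For Ccr1 it was WT, WT + JSH23, WTL and WTL + JSH23 from high to low, and each step passed the test. For Cx3cr1 it was WT, WTL, WT + JSH23 and WTL + JSH23, and WTL was above WT + JSH23 by 0.88 on the log2 scale (SE 0.109, adjusted p = 3.11e-07). Ccr2 had the same order, but the step between WTL and WT + JSH23 did not pass the test (0.22, SE 0.11, adjusted p = 0.0829). The libraries of these groups did not overlap, at 19.3 to 20.8 CPM in WTL and 13.5 to 18.9 CPM in WT + JSH23. That step passed in 6 alternatives, among them without WTL + JSH23 replicate 3 (0.22, adjusted p = 0.0351), and turned to -0.05 on the TPM scale. For Cxcr4 the order was WT + JSH23, WT, WTL + JSH23 and WTL, and each step passed the test. For Ccrl2 the WTL and WTL + JSH23 groups lay above WT and WT + JSH23, and neither pair of neighbours within these differed in the test. For Ccr7 the order of the CPM was WTL + JSH23, WT + JSH23, WTL and WT, spanning a 1.31-fold range.

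The genes whose pattern over the 12 libraries was most like that of each receptor were taken as the 2 protein-coding genes with the smallest root mean square difference of centred log2 CPM, among 9034 genes compared. Ccr2 and Cx3cr1 were each other's nearest gene, at a difference of 0.36, where their own root mean square deviations were 1.89 and 1.94. The next gene for both was Maf, a transcription factor of macrophages, at 0.70 and 0.68. For Ccr1 the nearest genes were Rcbtb2 (0.08) and Ptpn7 (0.09), for Ccrl2 they were Maff (0.15), a small Maf transcription factor, and Alpk2 (0.15), and for Cxcr4 they were Snx30 (0.18) and Scd2 (0.23), a stearoyl-CoA desaturase. For Ccr7 they were Eef2, the translation elongation factor, and Tmem115 (both 0.05), in a gene that itself varied by 0.16.

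Of 19 other chemokine and chemerin receptors and related genes, 7 were expressed enough to be tested. At an adjusted p under 0.05, 3 rose and 3 fell with LPS, where 65.7% of all genes passed. With JSH-23 none was higher, while 6 were lower without LPS and 5 under LPS, where 41.0% and 48.7% of all genes passed. Ccr3, between Ccr1 and Ccr2 on the chromosome, had at most 5 counts in a library. Ccr4, a receptor of skin-homing T cells, was low at 2.63 CPM in WT and fell by 1.77 on the log2 scale with JSH-23 without LPS (adjusted p = 6.65e-07). Ccr9, the gut-homing receptor, fell by 1.31 in the same comparison (adjusted p = 7.73e-08). Cxcr5, which guides cells to B cell follicles, rose by 1.00 on the log2 scale with LPS (adjusted p = 0.000172), from 1.15 to 2.31 CPM.

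Chemokines that bind these receptors were expressed by the same cultures. Of 20 ligand genes listed, 16 were tested, and 13 of them rose with LPS and none fell at an adjusted p under 0.05, where 65.7% of all genes passed. With JSH-23 under LPS 4 were higher and 9 lower, where 48.7% of all genes passed. The interaction passed for 10 ligands, 1 positive and 9 negative, against 18.0% of all genes. Ccl3, a ligand of CCR1, rose from 29.1 ± 1.25 to 1332 ± 63.1 CPM with LPS (log2 fold change 5.51, adjusted p = 1.29e-22) and reached 491 ± 32.1 CPM in WTL + JSH23. Ccl4, another inflammatory CC chemokine, rose from 15.7 to 532 CPM and reached 131 CPM in WTL + JSH23. The CCR2 ligand Ccl2 was at 12.2 CPM in WT and 19.7 CPM in WTL, a rise of 0.69 on the log2 scale (adjusted p = 3.6e-07). With JSH-23 Ccl2 was lower, with log2 changes of -1.70 without LPS (adjusted p = 2.55e-11) and -1.165 under LPS (adjusted p = 7.31e-10). Its interaction was 0.53 (adjusted p = 0.013). The other CCR2 ligands Ccl7 and Ccl12 were at most 2.55 CPM in group mean and were lower with JSH-23 under LPS, by -1.99 (adjusted p = 2.99e-06) and -2.44 (adjusted p = 8.63e-07).

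Ligands of CXCR2 were abundant in cells in which Cxcr2 itself was nearly absent. Cxcl2 went from 46.7 ± 0.741 to 2749 ± 49.2 CPM with LPS and Cxcl1 from 5.5 ± 0.676 to 699 ± 32.9 CPM. Cxcl5 was higher with JSH-23 in both comparisons, by 2.73 without LPS (adjusted p = 1.49e-15) and 2.04 under LPS (adjusted p = 3.68e-16), and Ppbp was higher by 1.90 without LPS (adjusted p = 1.47e-16). The ligands of the most abundant receptor were close to nothing: Ccl19 had at most 2 counts in a library and Ccl21a none. Cxcl12, the ligand of CXCR4, was at 0.238 to 0.381 CPM in group means and passed no test, with adjusted p of 0.62 for LPS without JSH-23. Rarres2, which encodes the chemerin that CCRL2 binds, had at most 6 counts in a library. Cx3cl1, the ligand of CX3CR1, was at 124 ± 6.31 CPM in WT and 224 ± 3.34 CPM in WTL, a log2 fold change of 0.85 (adjusted p = 1.19e-13), while Cx3cr1 fell.

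**Figure D5:**
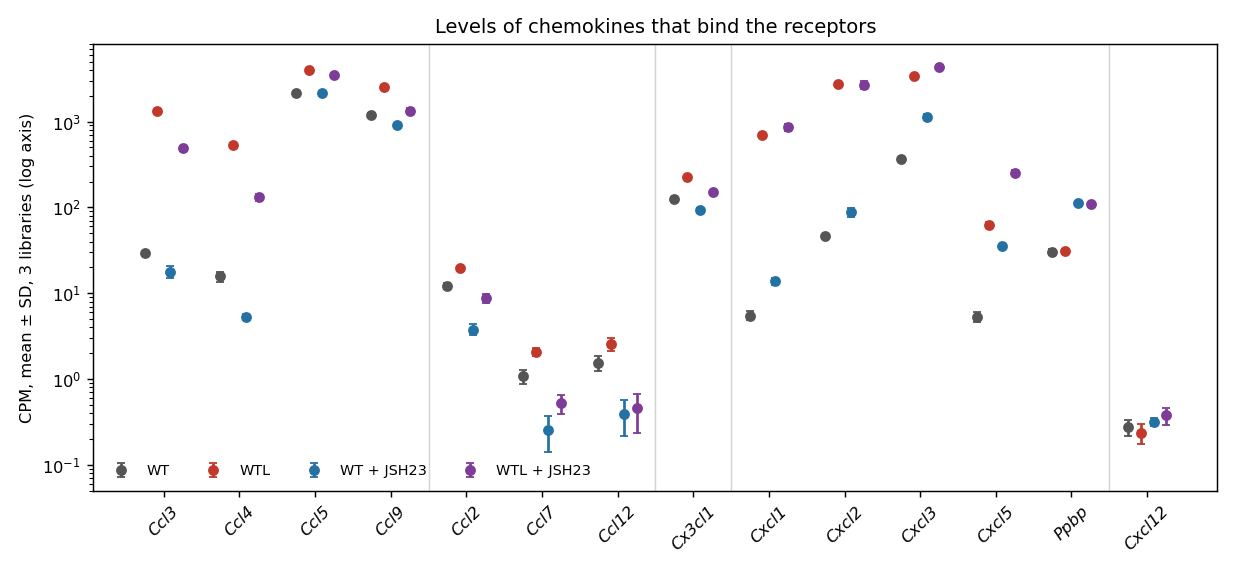
Mean level of 14 chemokine genes in the 4 groups (CPM, log axis, bars are SD of 3 libraries), with vertical lines between inflammatory CC chemokines and the ligands of CCR2, CX3CR1, CXCR2 and CXCR4. Ccl3, Ccl4, Cxcl1 and Cxcl2 are far higher in both LPS groups, while Cxcl12 lies below 1 CPM in every group.

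Genes that carry or end the signal of chemokine receptors inside the cell were followed as a further list, of which 28 of 30 symbols were found and tested. With LPS 13 rose and 13 fell, where 65.7% of all genes passed. With JSH-23 without LPS 4 were higher and 16 lower, where 41.0% of all genes passed, and all genes split into 2701 higher and 3180 lower. With JSH-23 under LPS 3 were higher and 15 lower, where 48.7% of all genes passed. Rgs1, a regulator of G protein signalling that shortens receptor responses, rose by 1.87 with LPS (adjusted p = 1.67e-18) and less with JSH-23 (interaction -0.65, adjusted p = 8.66e-07). Arrb1, which encodes a β-arrestin, fell by 1.33 with LPS (adjusted p = 4.2e-15), and Plcb2, a phospholipase downstream of G proteins, fell by 1.35 (adjusted p = 1.21e-14). Rgs2 was lower with JSH-23 without LPS by 1.54 on the log2 scale (adjusted p = 2.83e-13), and Rgs14 by 1.27 (adjusted p = 6.42e-12).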

How the data were processed

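The 12 libraries were grouped by their titles. The authors trimmed reads, aligned them with STAR to mm10 and estimated expression with RSEM. The deposited expected counts per gene are read pairs with no normalization between libraries, and the deposited TPM values were computed by the authors with effective transcript lengths. FPKM values deposited by the authors were not used. The labels name an rRNA depletion kit and the methods of the study a poly(A) kit, which was not settled here. Of the gene identifiers, 55154 of 55335 matched GENCODE M21 without the version suffix.

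Expected counts were rounded. filterByExpr of edgeR 4.0.16 (R 4.3.3) left 14357 genes, libraries were scaled by TMM, and a quasi-likelihood F-test used a model of the 12 libraries with 4 group means (8 residual degrees of freedom), with Benjamini-Hochberg adjustment over all genes. Changes were called at an adjusted p under 0.05, with and without a 2-fold threshold, and the interaction at the adjusted p alone. SE is the absolute log2 fold change divided by the square root of F. Alternatives were DESeq2 1.42.0 (test and size factors), upper quartile scaling, other filters, limma 3.58.1 on log2(TPM + 1), fits of only the groups compared, a replicate block and leaving out each library. The script was tested on simulated data. The methods of the study call the RNA-seq replicates biological, but the labels do not say whether they are separate cultures or animals. The p values therefore measure the spread between these libraries, and its source cannot be told.

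The receptor genes, the gene lists and the rule for named genes were chosen with earlier results of these data known. All receptor genes were named, and from each list those past both thresholds or with an interaction at an adjusted p under 0.05, at most the 4 largest per comparison with a group mean of at least 1 CPM, of which the text gives a selection. Itgax, H2-Ab1, H2-Aa, Cd74, Zbtb46, Flt3, Ccr3, Ccl19, Ccl21a, Cxcl12, Rarres2, Cx3cl1, Ccl2, Ly6c2, Cd14, Cd68, Vsig4, Mmp8, Csf3r, S100a9, Ly6g, Retnlg and Elane were added after their values were seen. 1 gene of the list of other receptors is not reported here.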

Additional observations from a re-analysis of the deposited data

Results flagged for a closer look

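The LPS change of 3 receptor genes differed with JSH-23 in the test of the difference itself. The difference on the log2 scale was 0.35 for Ccr1, 0.82 for Ccr2 and 1.03 for Cxcr4, each a smaller fall with LPS after JSH-23, and no cause was tested. In Ccr1 the LPS change was -1.33 without and -0.98 with JSH-23, in Ccr2 -2.91 and -2.09, and in Cxcr4 -2.70 and -1.66. The difference for Cxcr4 was between 0.94 and 1.11 over all alternatives run, and that for Ccr1 between 0.28 and 0.48. That for Ccr2 was between 0.66 and 1.16, and it missed the threshold in 1 alternative, without WTL + JSH23 replicate 1.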

How the results depend on the processing

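Over 810 recomputed values of 42 results on the receptor genes, 772 kept their direction and their side of the threshold, 12 no longer passed, 8 newly passed and 18 changed sign, all of the last in the interactions of Ccr7, Ccrl2 and Cx3cr1 or on the TPM scale. The 5, 4, 3, 2 and 3 receptor genes called in the 5 comparisons came to 6, 6, 5 and 5 at the adjusted p alone. At that threshold 9437 and 7828 genes of all tested passed in the LPS comparisons without and with JSH-23. In the JSH-23 comparisons under and without LPS 6994 and 5881 passed. With a 2-fold change also required, the counts in the same order were 2361, 1484, 1005 and 771. With limma on log2(TPM + 1) they were 1345, 613, 404 and 318 at both thresholds. A filter at a mean of 1 CPM left 511 genes called at both thresholds for JSH-23 without LPS, against 771 in the main fit. The reason for that drop was not tested. The share of higher calls was 44.7% for LPS without JSH-23 and 29.96% with TPM, and for the interaction 53.1%, 41.0% with DESeq2 and 79.5% with TPM. Changes of sign on the TPM scale were found for Ccr7 with LPS (-0.22 without and -0.077 with JSH-23), for the interactions of Ccrl2 (0.0224) and Cx3cr1 (1.03), and for Ccr2 between LPS alone and JSH-23 alone (-0.0464). The interaction of Ccr7 was -0.0062 both with DESeq2 size factors in edgeR and with DESeq2. When single libraries were left out, the interaction ranged from -0.0296 to 0.067 for Ccr7, from -0.194 to 0.0909 for Ccrl2 and from -0.36 to 0.11 for Cx3cr1. The cause of these changes was not tested. Replicate numbers are shared by WT and WTL and by the 2 JSH-23 groups. Deviations of same-numbered libraries correlated at 0.014 to 0.061, and those of differently numbered libraries at -0.056 to 0.035. Correlations this small, with 3 libraries per group, cannot decide whether same-numbered libraries came from a shared culture or animal. With the replicate block 5 receptor genes were called in WTL against WT, 4 in WTL + JSH23 against WT + JSH23 and 3 in the interaction, as without it. No paired analysis was possible for the JSH-23 comparisons because their groups share no replicate number. Depth limits Cxcr2, with at most 10 counts in a library, and Cx3cr1 in WTL + JSH23.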
